A study of Mus musculus with 24 samples.

Results

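The genes described here carry out glycolysis or respond to low oxygen in macrophages cultured from bone marrow of mice that lack Il10. A set of 34 was chosen by gene symbol in the probe annotation of an Affymetrix mouse array, and each gene was represented by the probe set with the highest mean among those assigned to a single symbol. On that rule 30 of the 34 were measured, among 18193 genes in all. Gpi1 and Eno1 matched no probe set with a single symbol, and Gapdh and Bnip3l only matched probe sets that carry several symbols (2 and 3), so these 4 have no values here. Ero1l is listed in the annotation under its newer name Ero1a.

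Glycolysis splits glucose into pyruvate and yields ATP without oxygen, and lactate dehydrogenase and a lactate exporter keep it running when pyruvate does not enter mitochondria. When oxygen is low, prolyl hydroxylases of the Egln family stop marking HIF-1α for destruction, and HIF-1 then binds DNA near glycolytic genes and near genes of blood vessel growth, collagen hydroxylation and mitochondrial turnover. In macrophages the same program is also known to be engaged by bacterial products, which shift these cells towards glycolysis.

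Macrophages came from 3 male mice per genotype, were cultured for 6 days in RPMI1640 with fetal calf serum, and either stayed in medium (unstimulated) or received 1 µg/mL Cbir1 flagellin, a bacterial flagellin, for 4 h. All 4 strains, the reference strain included, carry the Il10 deletion (Il10tm1Cgn). B6 is colitis resistant and C3Bir is colitis susceptible. BC-R3 has the B6 background with the C3Bir form of Cdcs1, a colitis locus on chromosome 3, while CB-R1 is C3Bir in background and carries a long piece of B6 chromosome 3, Cdcs1 included. None of the 30 measured genes lies on chromosome 3. Each of the 8 groups had 3 arrays, each of RNA pooled from 3 wells, and this number limits the precision. Each donor's cells went into both conditions, but no label ties an array number to a mouse. The p-values therefore reflect array-to-array spread, which may be partly technical.

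HIF-1 recognises the core ACGTG or GCGTG. The core was searched on both strands (as CACGT or CACGC on the opposite one) in the 250 bases before each annotated start in the RefSeq promoter windows of build GRCm38.p6. It was present for 27 of the 29 measured genes that have a window (93.1%), and for 7708 of the 14368 tested genes with a window (53.6%). Tpi1 and Eno2 had no match, and Ndrg1 was not among the windows. The letters ACGTG also form part of CACGTG, the E-box bound by other transcription factors, and both cores contain CpG, for which the shares were not adjusted. A match is a description of the letters and not a measured binding site. The last 160 bases before the start are shown 5′ to 3′ along the gene for 7 genes that were lower with the C3Bir background in at least 1 condition, and for Eno2, which was higher, with each match in capitals.
Slc2a1 (chr4:119108585-119108744, plus strand): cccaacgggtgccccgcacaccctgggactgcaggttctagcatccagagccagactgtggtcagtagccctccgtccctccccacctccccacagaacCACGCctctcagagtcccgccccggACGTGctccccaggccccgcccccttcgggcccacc
Pfkl (chr10:78009808-78009967, minus strand): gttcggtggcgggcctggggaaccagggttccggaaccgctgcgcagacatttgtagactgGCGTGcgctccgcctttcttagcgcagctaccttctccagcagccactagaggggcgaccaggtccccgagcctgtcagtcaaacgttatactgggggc
Slc16a3 (chr11:120948907-120949066, plus strand): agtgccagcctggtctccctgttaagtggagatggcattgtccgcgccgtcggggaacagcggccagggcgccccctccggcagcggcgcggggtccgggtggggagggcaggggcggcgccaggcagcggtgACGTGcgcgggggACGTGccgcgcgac
Bnip3 (chr7:138909507-138909666, minus strand): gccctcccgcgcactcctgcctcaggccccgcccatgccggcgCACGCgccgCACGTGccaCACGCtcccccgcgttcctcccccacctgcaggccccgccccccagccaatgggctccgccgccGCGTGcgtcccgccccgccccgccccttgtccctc
Egln1 (chr8:124949255-124949414, minus strand): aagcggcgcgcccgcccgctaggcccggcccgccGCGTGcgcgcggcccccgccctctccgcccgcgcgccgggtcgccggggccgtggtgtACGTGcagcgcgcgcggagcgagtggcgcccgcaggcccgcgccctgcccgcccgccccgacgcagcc
P4ha2 (chr11:54100764-54100923, plus strand): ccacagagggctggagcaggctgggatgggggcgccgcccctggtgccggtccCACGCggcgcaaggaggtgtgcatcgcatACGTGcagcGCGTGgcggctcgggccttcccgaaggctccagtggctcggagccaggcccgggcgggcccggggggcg
Pgk1 (chrX:106186940-106187099, plus strand): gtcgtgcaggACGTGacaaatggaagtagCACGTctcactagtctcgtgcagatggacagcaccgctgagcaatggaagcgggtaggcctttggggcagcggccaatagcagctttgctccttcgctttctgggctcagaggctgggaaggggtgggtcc
Eno2 (chr6:124769674-124769833, minus strand): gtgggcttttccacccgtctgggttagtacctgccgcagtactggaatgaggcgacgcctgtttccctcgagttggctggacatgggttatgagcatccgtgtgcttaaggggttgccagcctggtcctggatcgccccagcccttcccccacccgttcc
In these stretches the first base of the match nearest to the start lay 14 to 131 bases before it, at 14 for Slc16a3, 35 for Bnip3, 36 for Slc2a1, 68 for Egln1, 69 for P4ha2, 99 for Pfkl and 131 for Pgk1. Of the 17 genes lower with the C3Bir background in either condition, 16 had a match (94.1%), a share close to that of all measured members.

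All values below are the deposited log2 signals of the arrays, which carry no call of detection. The lower quartile of an array was 5.29 to 5.42 and its median 6.55 to 6.64, and 26 of the 30 genes had a mean above the median gene (7.33). Macrophage markers were high on all arrays (mean of 11 genes 11.95 to 12.58), and the list means of B cell, T and NK cell, and erythroid markers lay below the lowest array median on every array. Neutrophil granule genes were also high, with S100a8 at 12.80 to 13.94 and Mpo at 8.24 to 11.97. The list means of stromal markers (6.95 to 8.49, with Col1a2 at up to 12.19) and osteoclast markers (up to 8.13) lay above the array medians too. The unstimulated arrays were not alike within their groups. Over 19 inflammatory genes (Tnf, Il1b, Il6 and others) the mean reached 10.29 and 10.34 on arrays 2 and 3 of unstimulated B6, and 8.94 and 8.84 on the same numbers of unstimulated C3Bir. Elsewhere it was 7.04 to 8.41. These are called the 4 high arrays below. Leaving them out keeps 1 unstimulated array each of B6 and C3Bir, which is then assumed to vary like the other groups. The mean of 14 interferon-stimulated genes was high on all 3 unstimulated B6 arrays, array 1 included (11.83, 12.85 and 12.85, against 8.93 to 11.55 on the other 21). In such bulk samples, fewer cells of a type and less RNA per cell cannot be told apart.

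**Figure D1:**
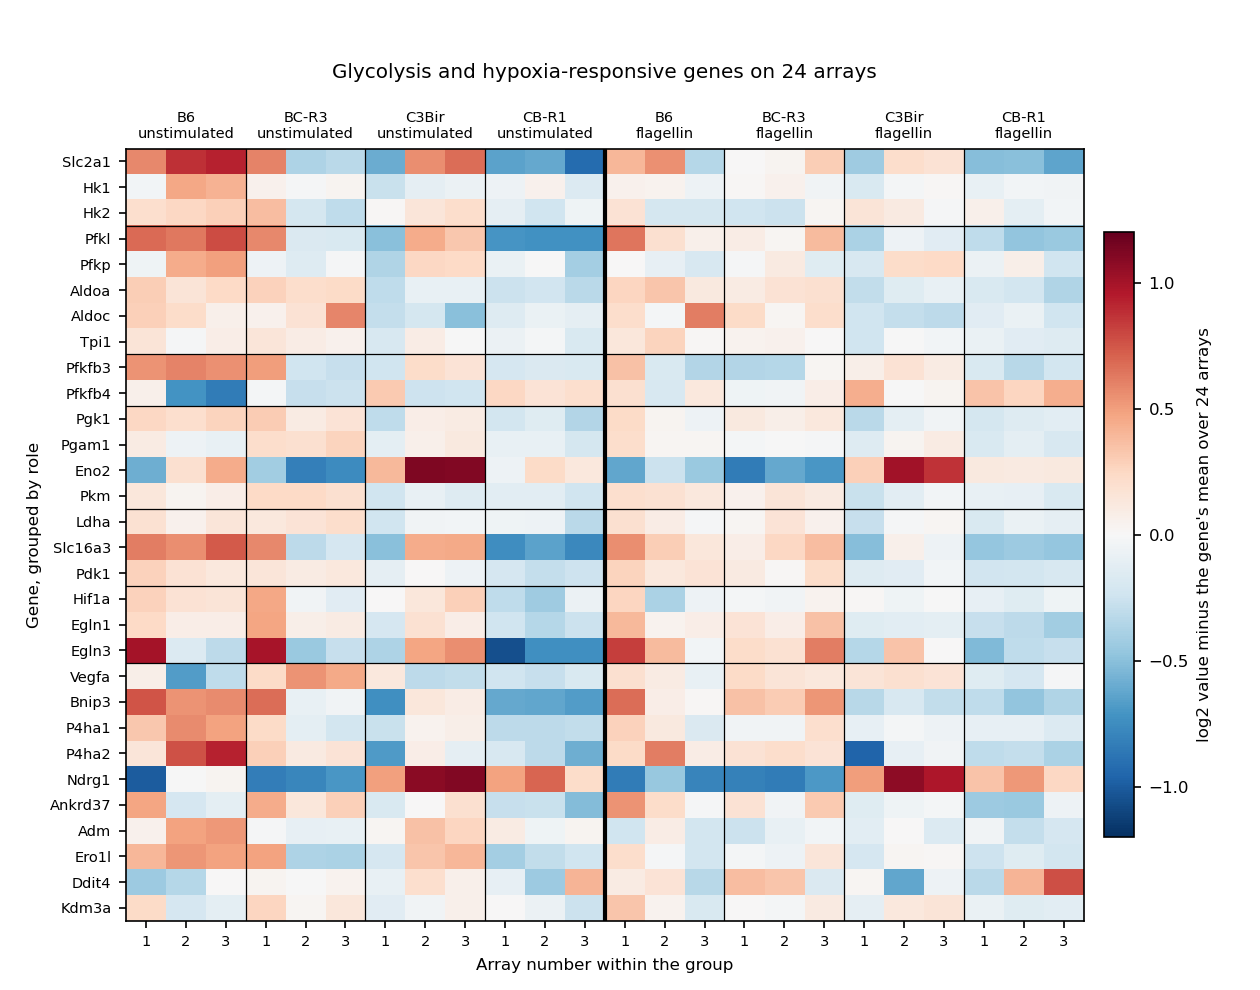
Log2 value of each of 30 genes (rows, grouped by role) on each of 24 arrays (columns, grouped by strain and condition), minus the gene's mean over the 24 arrays. Aldoa and Pdk1 are higher in B6 and BC-R3 than in C3Bir and CB-R1, Ndrg1 has the reverse pattern, and in unstimulated C3Bir and BC-R3 array 1 differs from arrays 2 and 3 in 11 and 9 genes by more than 0.5.

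The first comparison asked how the members differ with the genetic background, by setting the mean of C3Bir and CB-R1 against the mean of B6 and BC-R3, so that both forms of Cdcs1 are on each side. Among the measured members, most enzymes of glycolysis, the lactate exporter and several hypoxia-responsive genes were lower with the C3Bir background, and Eno2 and Ndrg1 were higher. The 14 further glycolysis genes described below did not share this fall (4 higher and 1 lower in unstimulated cells, 2 and 1 with flagellin). In unstimulated cells 16 of 30 genes were lower and 3 higher, and 18.2% of all genes passed the same threshold (limma, Benjamini-Hochberg adjusted p under 0.05; 7.09% lower and 11.2% higher). With flagellin 13 were lower and 2 higher, against 14.9% of all genes (6.17% lower and 8.74% higher). The median difference of the members was -0.29 and -0.17 on the log2 scale in the 2 conditions, and that of all genes 0.01 and 0.03. The arrays of the backgrounds did not overlap for 8 members in unstimulated cells (4.92% of all genes) and 12 with flagellin (9.23%).

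Of the lower genes, 12 passed in both conditions, which is 75% of those in unstimulated cells and 92.3% of those with flagellin. They were Pfkl, Aldoa, Aldoc, Pgk1, Pkm, Ldha, Slc16a3, Pdk1, Bnip3, Egln1, P4ha2 and Ankrd37. Slc2a1, Hk1, Pgam1 and P4ha1 passed only in unstimulated cells and Tpi1 only with flagellin, and whether the conditions differ in these genes was not tested. The calls of 15 genes in unstimulated cells and 10 with flagellin held whichever array was left out. Such fits keep every strain and cannot show dependence on 1 strain. Of these, Hk1, Pfkl, Pgk1, Ldha, Slc16a3, Pdk1, Bnip3, Egln1, P4ha1 and P4ha2 lost their unstimulated call in C3Bir against BC-R3 alone. With flagellin Aldoc, Slc16a3, Bnip3, Egln1 and P4ha2 lost theirs in that pair. In CB-R1 against B6 alone, Aldoc and Eno2 lost the call in both conditions, and Bnip3 and P4ha2 with flagellin.

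**Figure D2:**
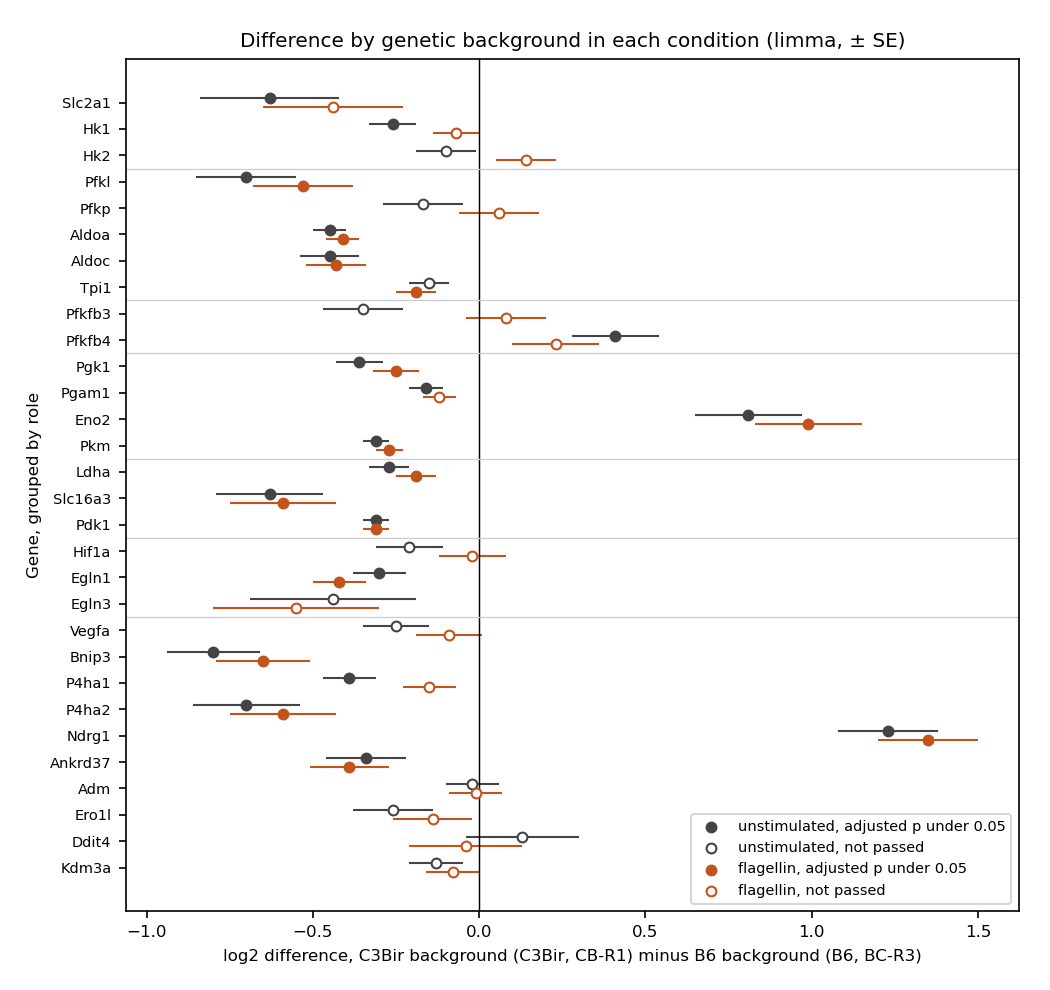
Log2 difference ± SE between the C3Bir background and the B6 background for 30 genes (rows, grouped by role) in unstimulated cells (grey) and with flagellin (orange), 6 arrays per background. Filled points passed an adjusted p under 0.05. Most filled points lie between -0.80 and -0.15, and Eno2 and Ndrg1 lie between 0.81 and 1.35.

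Glucose enters through Slc2a1 (GLUT1) and is phosphorylated by the hexokinases. Slc2a1 ranged from 10.20 to 11.49 (median 11.16) on the 6 unstimulated B6-background arrays and from 9.65 to 11.24 (median 9.97) on the 6 of the C3Bir background, which overlap. It was lower by 1.55-fold (log2 -0.63 ± 0.21 SE, adjusted p = 0.0355), and with flagellin the difference was -0.44 ± 0.21 (adjusted p = 0.18). The Slc2a1 call was lost in 7 of the 12 fits that each left out 1 array. Hk1, the broadly expressed hexokinase, was lower in unstimulated cells (-0.26 ± 0.07) and stood at -0.07 ± 0.07 with flagellin, and its unstimulated call was lost without the 4 high arrays. Hk2, the inducible hexokinase, did not pass in either condition (-0.10 ± 0.09 and 0.14 ± 0.09).

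In upper glycolysis the liver-type phosphofructokinase Pfkl and both aldolases were lower. Pfkl had a median of 11.42 with the B6 background (10.63 to 11.60) and 10.21 with the C3Bir background (10.09 to 11.26) in unstimulated cells, and 10.96 (10.84 to 11.46) against 10.47 (10.34 to 10.76) with flagellin. The arrays overlapped in unstimulated cells and not with flagellin, and the differences were -0.70 ± 0.15 (adjusted p = 0.00194) and -0.53 ± 0.15 (adjusted p = 0.0164). Aldoa, the main aldolase outside liver and brain, was the clearest case. Its 6 unstimulated B6-background arrays read 13.65, 13.51 and 13.59 in B6 and 13.63, 13.56 and 13.58 in BC-R3. Those of the C3Bir background read 13.05, 13.26 and 13.26 in C3Bir and 13.09, 13.12 and 13.03 in CB-R1. No array of one background reached those of the other, with a difference of -0.45 ± 0.05 (adjusted p = 2.85e-06), and with flagellin it was -0.41 ± 0.05 (adjusted p = 9.2e-06), again with no overlap. Aldoc, the aldolase of brain, was lower by -0.45 ± 0.09 and -0.43 ± 0.09 with no overlap in either condition. Tpi1, which interconverts the triose phosphates, passed with flagellin (-0.19 ± 0.06, adjusted p = 0.0229) and not in unstimulated cells (-0.15 ± 0.06, adjusted p = 0.0766). The platelet-type phosphofructokinase Pfkp did not pass (-0.17 ± 0.12 and 0.06 ± 0.12).

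Pfkfb3 and Pfkfb4 make and remove fructose 2,6-bisphosphate, which drives phosphofructokinase. Pfkfb3 did not pass (-0.35 ± 0.12, adjusted p = 0.0583, and 0.08 ± 0.12). Pfkfb4 was higher with the C3Bir background in unstimulated cells (0.41 ± 0.13, adjusted p = 0.0286) and stood at 0.23 ± 0.13 with flagellin. Its unstimulated call did not hold without the 4 high arrays, on 2 of which, B6 arrays 2 and 3, Pfkfb4 had its lowest values (8.71 and 8.59 against 9.15 to 9.74 on the other 10 unstimulated arrays).

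In lower glycolysis Pgk1 and Pkm were lower in both conditions and Eno2 was higher. Pkm, the macrophage pyruvate kinase, ranged from 12.95 to 13.15 (median 13.08) on unstimulated B6-background arrays and from 12.68 to 12.83 (median 12.77) on those of the C3Bir background. With flagellin it ranged from 12.97 to 13.12 and from 12.65 to 12.88. The backgrounds did not overlap in either condition, and the differences were small and tight, -0.31 ± 0.04 (adjusted p = 3.07e-05) and -0.27 ± 0.04 (adjusted p = 0.00018). Pgk1, phosphoglycerate kinase, was lower by -0.36 ± 0.07 and -0.25 ± 0.07. Pgam1, phosphoglycerate mutase, was lower in unstimulated cells (-0.16 ± 0.05, adjusted p = 0.046), a call that was lost in 10 of 12 fits without 1 array.

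Eno2, the neuronal enolase, ran against these. It read 8.32, 9.10 and 9.35 in unstimulated B6 and 8.49, 8.09 and 8.15 in BC-R3. It read 9.30, 10.03 and 10.02 in C3Bir and 8.85, 9.14 and 9.03 in CB-R1. The backgrounds overlapped in unstimulated cells through B6 arrays 2 and 3. With flagellin the 6 B6-background arrays (8.07 to 8.65, median 8.29) all lay below those of the C3Bir background (9.01 to 9.91, median 9.11). Eno2 was 1.76-fold higher with the C3Bir background in unstimulated cells (0.81 ± 0.16, adjusted p = 0.000958) and 1.99-fold higher with flagellin (0.99 ± 0.16, adjusted p = 0.000134). In CB-R1 against B6 alone the Eno2 difference was in the same direction but did not pass in either condition (0.08 ± 0.22 and 0.55 ± 0.22).

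All 3 genes of lactate and pyruvate control were lower in both conditions. Pdk1, the kinase that shuts pyruvate out of the citric acid cycle, read 8.63, 8.53 and 8.48 in unstimulated B6 and 8.50, 8.45 and 8.48 in BC-R3. It read 8.24, 8.36 and 8.29 in C3Bir and 8.15, 8.07 and 8.10 in CB-R1. The backgrounds did not overlap, and Pdk1 was lower by -0.31 ± 0.04 in unstimulated cells (adjusted p = 3.53e-05) and by -0.31 ± 0.04 with flagellin (adjusted p = 2.74e-05). Slc16a3 (MCT4), the lactate exporter, had a median of 10.63 (9.75 to 10.80) against 9.49 (9.29 to 10.52) in unstimulated cells and of 10.34 (10.14 to 10.62) against 9.62 (9.55 to 10.12) with flagellin. Only with flagellin did its arrays not overlap, and the differences were -0.63 ± 0.16 (adjusted p = 0.00721) and -0.59 ± 0.16 (adjusted p = 0.0124). Ldha, which turns pyruvate into lactate, was lower by -0.27 ± 0.06 (adjusted p = 0.00321) and -0.19 ± 0.06 (adjusted p = 0.0387), the latter lost in 8 of 12 fits without 1 array.

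Among the oxygen sensors Egln1 (PHD2), the main prolyl hydroxylase acting on HIF-1α, was lower. It ranged from 9.29 to 9.69 against 8.88 to 9.40 in unstimulated cells and from 9.26 to 9.61 against 8.80 to 9.10 with flagellin. The differences were -0.30 ± 0.08 (adjusted p = 0.00931) and -0.42 ± 0.08 (adjusted p = 0.000742), with no overlap only in the latter. Hif1a, the oxygen-regulated subunit of HIF-1, did not pass (-0.21 ± 0.10, adjusted p = 0.16, and -0.02 ± 0.10, adjusted p = 0.923). Its 4 probe sets differed in unstimulated cells: the others gave -0.61 ± 0.11, -0.12 ± 0.14 and 0.23 ± 0.09, the last of opposite sign at an unadjusted p of 0.0215. Egln3 (PHD3), itself a HIF target, did not pass (-0.44 ± 0.25, adjusted p = 0.253, and -0.55 ± 0.25, adjusted p = 0.157), and its arrays spanned 2.05 log2 units, from 7.02 to 9.07.

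Of the 10 hypoxia-responsive genes, 4 were lower in unstimulated cells and 3 with flagellin, and Ndrg1 was higher in both. Bnip3, which marks mitochondria for removal, read 11.01, 10.79 and 10.82 in unstimulated B6, 10.92, 10.16 and 10.21 in BC-R3, 9.52, 10.39 and 10.34 in C3Bir and 9.64, 9.63 and 9.58 in CB-R1. It was 1.74-fold lower with the C3Bir background (-0.80 ± 0.14, adjusted p = 0.000431), and 1.57-fold lower with flagellin (-0.65 ± 0.14, adjusted p = 0.00339), where no array overlapped. P4ha2, a collagen prolyl hydroxylase subunit, was lower by -0.70 ± 0.16 (8.11 to 8.92 against 7.32 to 8.08) and by -0.59 ± 0.16 (8.09 to 8.61 against 7.04 to 7.96), with no overlap in either condition. P4ha1, the other such subunit, was lower only in unstimulated cells (-0.39 ± 0.08, adjusted p = 0.00193, against -0.15 ± 0.08). Ankrd37, an ankyrin repeat gene near the array median, was lower by -0.34 ± 0.12 and -0.39 ± 0.12, calls lost in 8 and 6 of 12 fits without 1 array.

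Ndrg1, a stress-responsive gene, showed the largest difference of the 30. Its B6-background arrays ranged from 9.41 to 10.44 (median 9.67) in unstimulated cells and from 9.57 to 9.96 (median 9.61) with flagellin. Those of the C3Bir background ranged from 10.63 to 11.52 (median 11.00) and from 10.66 to 11.48 (median 10.92), so no array overlapped. It was 2.34-fold higher in unstimulated cells (1.23 ± 0.15, adjusted p = 9.35e-06) and 2.54-fold higher with flagellin (1.35 ± 0.15, adjusted p = 2.93e-06). The 4 other probe sets of Ndrg1 gave 1.11 to 1.29 in unstimulated cells. Vegfa, the vascular growth factor, did not pass (-0.25 ± 0.10, adjusted p = 0.0862, and -0.09 ± 0.10, adjusted p = 0.614). Adm (adrenomedullin), Ero1l (an oxidase of the endoplasmic reticulum), Ddit4 (an inhibitor of mTORC1) and Kdm3a (a histone demethylase) did not pass in either condition, with differences between -0.26 and 0.13.

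**Figure D3:**
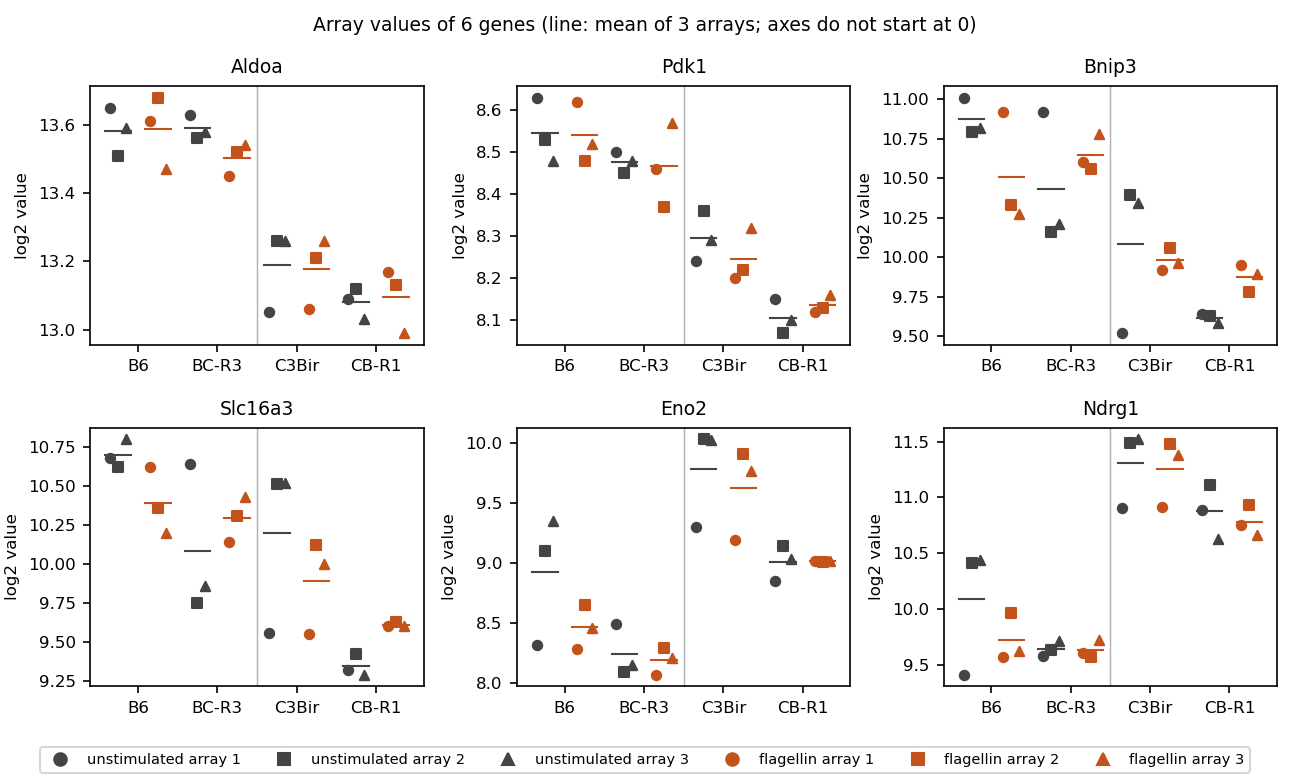
Log2 value of 6 genes on every array, by strain and condition (grey unstimulated, orange flagellin; marker shape is the array number, line the mean of 3 arrays). Aldoa, Pdk1 and Ndrg1 separate the B6 background (left of the vertical line) from the C3Bir background in each condition, while Bnip3, Slc16a3 and Eno2 overlap in unstimulated cells.

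The count of called members depended on the strain pair taken. CB-R1 against B6 alone gave 22 called members in unstimulated cells and 10 with flagellin, and C3Bir against BC-R3 alone gave 6 and 5. For these fits and the fit without the 4 high arrays, the shares of all genes are not given here. The counts alone therefore do not show a difference particular to the members. In C3Bir against BC-R3, Slc2a1 (0.25), Pfkl (0.02) and Slc16a3 (0.11) had the opposite sign in unstimulated cells. Without the 4 high arrays the counts were 20 and 15. Neutrophil markers moved with the background: 7 of 7 measured of 9 listed were higher with the C3Bir background in unstimulated cells (3 without the 4 high arrays) and 5 with flagellin, and their mean level was 11.11 to 12.01 against 11.78 to 12.87 and 11.15 to 12.04 against 11.65 to 12.87. The mean of the inflammatory genes was 7.23 to 10.34 against 7.04 to 8.94 in unstimulated cells and 7.63 to 8.13 against 7.24 to 7.66 with flagellin. Of the interferon-stimulated genes 5 of 14 were lower in unstimulated cells and 0 with flagellin. Osteoclast markers had 1 of 5 higher in each condition, with means of up to 7.90 against 7.64 to 8.13 and 7.24 to 7.43 against 7.61 to 7.85. The part of these lists in the result was not tested.

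Sequence that differs between strains within a probe can also alter the signal. Of the called members, 10 in unstimulated cells and 8 with flagellin had another probe set, none of which had the opposite sign, and 9 and 7 of them had one of the same sign at an unadjusted p under 0.05. Aldoa had 4 others, from -0.66 to -0.23 in unstimulated cells. For Pfkfb4, Pgam1, Eno2, Pkm, Ldha, Slc16a3, Bnip3, P4ha2 and Ankrd37 the annotation gave a single probe set, so a variant and a change in expression cannot be told apart.

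The parental comparison, C3Bir against B6, shares its arrays with the background comparison and is given beside it, not as separate support. In unstimulated cells 11 members were lower and 2 higher, where 16.7% of all genes passed (6.3% lower and 10.4% higher), and the member median was -0.23 against 0 for all genes. The largest falls were in P4ha2 (-0.84 ± 0.22), Bnip3 (-0.79 ± 0.20), Pfkl (-0.61 ± 0.21, adjusted p = 0.0497), Aldoc (-0.52 ± 0.13) and Pfkfb3 (-0.52 ± 0.18, adjusted p = 0.0491), and the rises were in Ndrg1 (1.22 ± 0.22) and Eno2 (0.86 ± 0.22). P4ha1, Hk1, Aldoa, Pgk1, Pdk1 and Pkm were also lower, by 0.24 to 0.51. Slc2a1 (-0.58 ± 0.29), Ldha (-0.23 ± 0.09), Hif1a (-0.06 ± 0.14), Vegfa (0.14 ± 0.14) and Egln3 (0.05 ± 0.35) did not pass. Hk1, Aldoa, Pdk1, P4ha1 and Ndrg1 held whichever array was left out, Pfkl was lost in 4 and Pfkfb3 in 5 of the 6 such fits, and 3 members passed without the 4 high arrays. Other probe sets of Pfkfb3 and Pdk1 had the opposite sign, none at an unadjusted p under 0.05.

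With flagellin, Aldoa (-0.41 ± 0.07), Aldoc (-0.55 ± 0.13), Pkm (-0.31 ± 0.06) and Pdk1 (-0.30 ± 0.06) were lower in C3Bir than in B6, and Eno2 (1.16 ± 0.22) and Ndrg1 (1.54 ± 0.22) were higher. These 6 of 30 compare with 6.63% of all genes (2.93% lower and 3.7% higher). Ndrg1 read 9.57, 9.96 and 9.62 in B6 and 10.91, 11.48 and 11.38 in C3Bir, which do not overlap, a 2.91-fold difference (adjusted p = 9.19e-05). Arrays did not overlap for 13 members, against 20.3% of all genes. Slc2a1 (-0.22 ± 0.29), Ldha (-0.18 ± 0.09), Hif1a (0.05 ± 0.14), Vegfa (0.11 ± 0.14) and Egln3 (-0.39 ± 0.35) did not pass. With only these 6 arrays in the fit, 2 members passed.

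The pairs that differ at Cdcs1 were compared within each background. CB-R1 carries a long piece of B6 chromosome 3, so there the locus and the rest of the piece cannot be told apart. BC-R3 against B6 in unstimulated cells gave 8 lower and 2 higher members. In total this share (33.3%) was near that of all genes, of which 30.3% passed. By direction it was not, as all genes had 12.7% lower and 17.6% higher. Slc2a1 (-0.82 ± 0.29), Eno2 (-0.68 ± 0.22), Pfkl (-0.63 ± 0.21), Slc16a3 (-0.62 ± 0.22), Pfkfb3 (-0.57 ± 0.18), Ero1l (-0.56 ± 0.18), P4ha1 (-0.50 ± 0.12) and Adm (-0.42 ± 0.12) were lower in BC-R3. Vegfa was 1.63-fold higher (0.71 ± 0.14, adjusted p = 0.00147), at 10.01, 10.32 and 10.24 against 9.85, 9.11 and 9.48 in B6 with no overlap, and Pgam1 was slightly higher (0.24 ± 0.08). Arrays did not overlap for 7 members, against 37.4% of all genes. Hif1a (-0.11 ± 0.14), Ldha (0.04 ± 0.09) and Egln3 (-0.08 ± 0.35) did not pass. These calls depended on single arrays of both groups. Without B6 array 2 or array 3, 2 members passed, without BC-R3 array 2 it was 4 and without BC-R3 array 3 it was 3. None (0) passed without the 4 high arrays, and P4ha1 and Vegfa alone held whichever array was left out. Of the inflammatory genes 17 of 19 were also lower in BC-R3 (mean of 7.23 to 8.41 against 8.29 to 10.34 in B6), and of the interferon-stimulated genes 14 of 14 (9.38 to 11.55 against 11.83 to 12.85). Stromal markers had 2 of 9 lower (7.09 to 7.44 against 7.43 to 8.49) and osteoclast markers 2 of 5, and 4 of 11 macrophage markers were higher. The part of these lists in the result was not tested.

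With flagellin no member passed between BC-R3 and B6 (0 of 30 by limma, 0 at an unadjusted p under 0.05), where 0.0165% of all genes did. Differences ranged from -0.27 to 0.20, with Slc2a1 at -0.09 ± 0.29, Hif1a at 0.05 ± 0.14, Ldha at -0.02 ± 0.09, Vegfa at 0.10 ± 0.14 and Egln3 at -0.05 ± 0.35.

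On the C3Bir background, CB-R1 against C3Bir also gave 0 called members by limma in unstimulated cells, where 1.01% of all genes passed. At an unadjusted p under 0.05 (limma) there were 12 of 30 members and 3225 of 18193 genes. Differences were negative for 27 members and positive for 3. Arrays did not overlap for 13 members, against 20.8% of all genes. The lowest adjusted p of a member was 0.0552, for Pfkl (-0.81 ± 0.21). Pfkl read 10.32, 11.26 and 11.14 in C3Bir and 10.11, 10.09 and 10.09 in CB-R1. Slc16a3 (-0.85 ± 0.22), Slc2a1 (-0.94 ± 0.29), Eno2 (-0.78 ± 0.22), Egln3 (-1.06 ± 0.35) and Hif1a (-0.41 ± 0.14) had adjusted p-values of 0.0575 to 0.122. Ldha (-0.04 ± 0.09) and Vegfa (-0.07 ± 0.14) lay near 0. The list means also differed between these unstimulated groups. Neutrophil markers stood at 12.65 to 12.87 in CB-R1 against 11.78 to 12.47 in C3Bir, and stromal markers at 7.96 to 8.34 against 7.11 to 7.58. The inflammatory genes stood at 7.04 to 7.32 against 7.24 to 8.94. The part of these lists in the result was not tested. Without C3Bir unstimulated array 1 alone, 9 members passed. The share of all genes in that fit is not given here, and the 1.01% above is from the fit of all arrays. The C3Bir arrays then left, 2 and 3, are both among the 4 high arrays, with inflammatory means of 8.94 and 8.84 against 7.24 on array 1. With flagellin 0 members passed by limma (0.055% of all genes), and 4 of 30 members and 1472 of 18193 genes had an unadjusted p under 0.05. The flagellin differences of Slc2a1, Hif1a, Ldha, Vegfa and Egln3 were -0.53 ± 0.29, -0.09 ± 0.14, -0.04 ± 0.09, -0.29 ± 0.14 and -0.37 ± 0.35.

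The flagellin comparison asked how cells with 4 h of flagellin differed from unstimulated cells within each strain. In B6, 4 members passed, Pfkfb4 higher and Pfkfb3, P4ha1 and Adm lower with flagellin, as did 22.4% of all genes (12.9% higher and 9.49% lower). The B6 calls depended on single arrays, and 0 members passed without unstimulated array 2 or without unstimulated array 3. Without flagellin array 3 the calls of Pfkfb3, Pfkfb4 and P4ha1 were also lost, and without flagellin array 1 that of Pfkfb4. In C3Bir, BC-R3 and CB-R1 no member and no gene passed (0% each), with 2, 1 and 0 members at an unadjusted p under 0.05. The median difference of the members was -0.22 for B6, -0.05 for C3Bir, -0.04 for BC-R3 and 0.04 for CB-R1, and that of all genes between -0.02 and 0.

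Pfkfb3 read 9.94, 10.00 and 9.95 in unstimulated B6 and 9.75, 9.22 and 9.05 with flagellin, with no overlap (29.6% of all genes had none), and fell by 0.62 ± 0.18 on the log2 scale (adjusted p = 0.0178). Adm, the vasodilator adrenomedullin, read 6.68, 7.11 and 7.15 and then 6.39, 6.72 and 6.41, and fell by 0.48 ± 0.12 (adjusted p = 0.00852), with overlap between array 1 before and array 2 after. P4ha1 read 10.46, 10.71 and 10.62 and then 10.42, 10.26 and 9.97, and fell by 0.38 ± 0.12 (adjusted p = 0.025). The 3 falls differ in how high B6 arrays 2 and 3 stood over array 1: only slightly in Pfkfb3, by more in P4ha1 and Adm.

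Pfkfb4 read 9.49, 8.71 and 8.59 in unstimulated B6 and 9.62, 9.23 and 9.55 with flagellin, and rose by 0.54 ± 0.18 (adjusted p = 0.0408). Array 1 overlapped with the flagellin arrays and arrays 2 and 3 lay below them. Slc2a1 (-0.59 ± 0.29), Hif1a (-0.26 ± 0.14), Ldha (-0.03 ± 0.09), Vegfa (0.37 ± 0.14, adjusted p = 0.0597) and Egln3 (0.22 ± 0.35) did not pass. All 4 calls were lost without B6 unstimulated array 2 or without array 3, and 0 passed without the 4 high arrays, where the Pfkfb4 difference was -0.02. The inflammatory genes moved along with them, with 12 of 19 lower on the flagellin arrays, and so did the interferon-stimulated genes, with 14 of 14 lower (8.93 to 11.35 against 11.83 to 12.85). Their part in the result was not tested.

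In the other strains the genes named throughout did not pass. For Slc2a1 the difference was -0.23 ± 0.29 with C3Bir, 0.14 ± 0.29 with BC-R3 and 0.18 ± 0.29 with CB-R1 cells. Vegfa gave 0.33 ± 0.14, -0.24 ± 0.14 and 0.12 ± 0.14 in that order, Hif1a -0.16, -0.11 and 0.16 (SE 0.14 each), Ldha 0.01, -0.09 and 0.02 (SE 0.09 each), and Egln3 -0.22, 0.25 and 0.47 (SE 0.35 each). Over all members the range was -0.31 to 0.33 for C3Bir, -0.24 to 0.25 for BC-R3 and -0.20 to 0.47 for CB-R1.

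**Figure D4:**
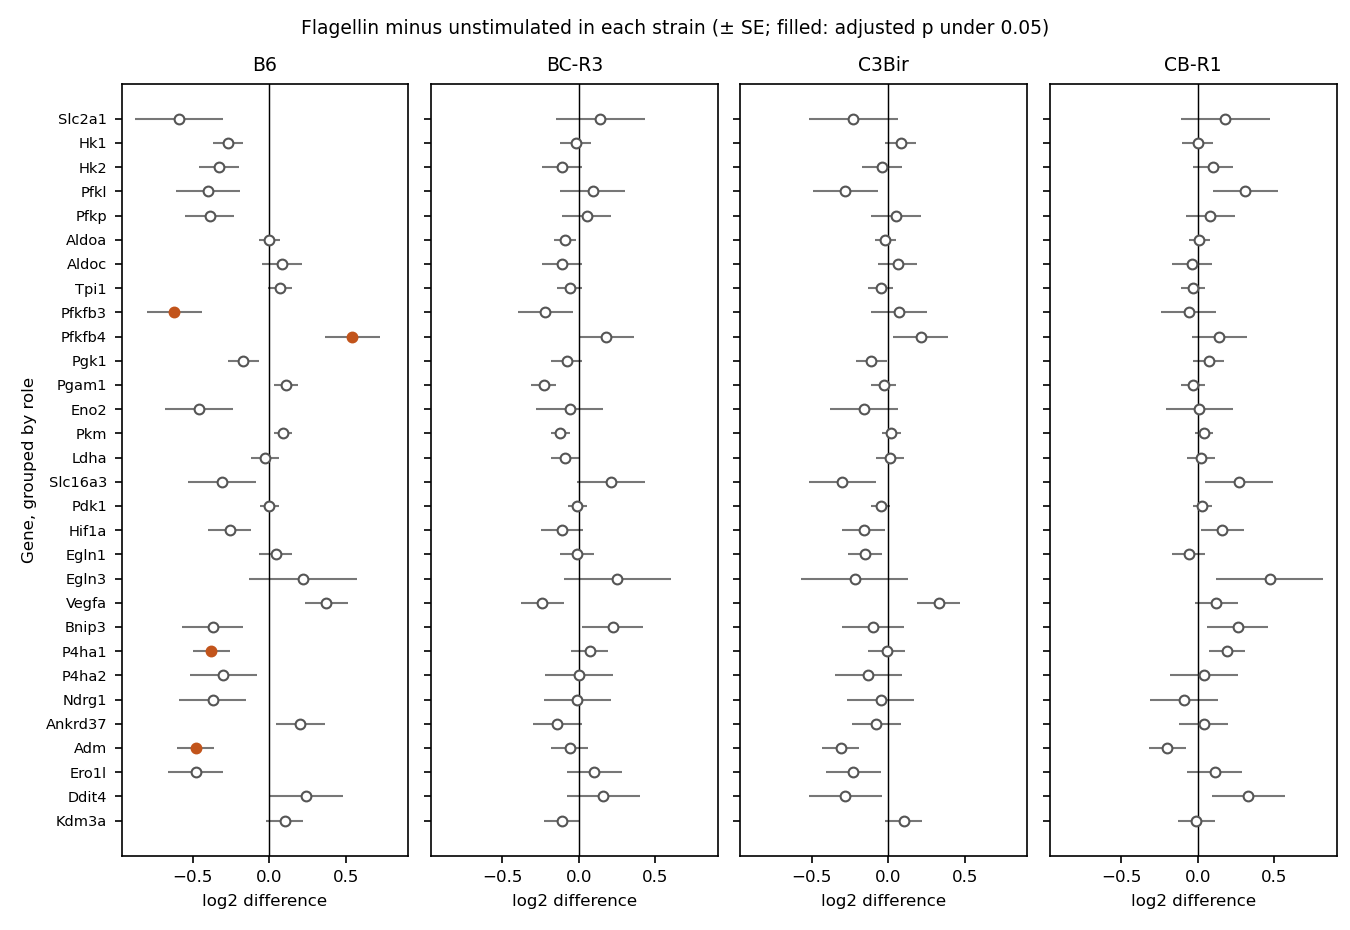
Log2 difference ± SE between flagellin and unstimulated cells for 30 genes (rows, grouped by role) in each of 4 strains, 3 arrays per group. Filled points passed an adjusted p under 0.05: Pfkfb3, Pfkfb4, P4ha1 and Adm in B6, and none in BC-R3, C3Bir or CB-R1.

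The test of the difference between strains in their flagellin change called 1 member in BC-R3 against B6, where 10.5% of all genes passed (4.16% higher and 6.38% lower). For Pgam1 flagellin minus unstimulated was 0.11 ± 0.08 in B6 and -0.23 ± 0.08 in BC-R3, a difference of -0.34 ± 0.11 (adjusted p = 0.0488). Vegfa (-0.61 ± 0.20, adjusted p = 0.0517) and P4ha1 (0.46 ± 0.16, adjusted p = 0.0736) were next, and Slc2a1 stood at 0.73 ± 0.41. No member passed in C3Bir against B6 or in CB-R1 against C3Bir (0 by limma, and 0% of all genes in each), with 3 and 0 at an unadjusted p under 0.05. The comparisons share unstimulated arrays with those within strains.

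Members also differed between arrays of 1 group, and array 1 was set against the mean of the other 2. In unstimulated C3Bir, 10 members were lower by more than 0.5 log2 units on array 1, namely Slc2a1, Pfkl, Pfkp, Eno2, Slc16a3, Bnip3, Egln3, P4ha2, Ndrg1 and Ero1l, against 3.29% of all genes. In unstimulated BC-R3, 9 were higher on array 1 (Slc2a1, Hk2, Pfkl, Pfkfb3, Slc16a3, Hif1a, Bnip3, Egln3 and Ero1l), against 3.39% of all genes. The inflammatory means of arrays 1, 2 and 3 were 7.24, 8.94 and 8.84 in unstimulated C3Bir and 8.41, 7.32 and 7.23 in unstimulated BC-R3. Those of the interferon-stimulated genes were 10.35, 10.46 and 10.20 in C3Bir and 11.55, 9.64 and 9.38 in BC-R3. The part of these lists in the spread was not tested. Slc2a1 read 9.98, 11.13 and 11.24 on the C3Bir arrays and 11.17, 10.20 and 10.25 on those of BC-R3. Of the same groups Egln3 read 7.70, 8.55 and 8.63 and 9.06, 7.63 and 7.80. In C3Bir with flagellin, 6 members were lower on array 1 (1.25% of all genes), and B6 unstimulated array 1 had 4 higher and 4 lower (4.2% and 4.04%). In B6 with flagellin, Pfkl, Pfkfb3, Bnip3 and Egln3 were higher on array 1 (2.88% of all genes), and in CB-R1 with flagellin Ddit4 was lower (0.077%). In BC-R3 with flagellin and in unstimulated CB-R1 no member differed by that much.

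Other genes of these pathways were grouped in lists, and a list is described by its counts, beside the shares of all genes given above. Of 14 further glycolysis genes, 4 were higher and 1 lower with the C3Bir background in unstimulated cells (2 and 1 without the 4 high arrays), and 2 and 1 with flagellin. Slc2a3 (GLUT3) was higher by 0.82 ± 0.18 and 0.57 ± 0.18, Ldhb, the lactate dehydrogenase chain of heart, by 0.41 ± 0.08 and 0.39 ± 0.08, and Eno3, the muscle enolase, was lower by -0.26 ± 0.05 and -0.24 ± 0.05. Of 7 pentose phosphate genes, 1 was higher and 3 lower in each condition: Pgd (-0.59 ± 0.08 and -0.61 ± 0.08), Taldo1 (-0.56 ± 0.05 and -0.53 ± 0.05) and Tkt (-0.38 ± 0.06 and -0.47 ± 0.06), enzymes that lead back into glycolysis or supply NADPH.

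Of 12 genes of pyruvate entry into mitochondria, 1 was higher and 1 lower in unstimulated cells (0 and 1 without the 4 high arrays) and 1 and 2 with flagellin. Mpc1, a subunit of the mitochondrial pyruvate carrier, was lower by -0.68 ± 0.07 and -0.66 ± 0.07. Of 17 citric acid cycle genes, 1 was higher and 2 lower in unstimulated cells (0 and 1 without the 4 high arrays), and 1 and 3 with flagellin, with Fh1, fumarase, higher by 0.42 ± 0.08 and 0.38 ± 0.08. In BC-R3 against B6 unstimulated, 10 of these 17 were higher and 0 lower, and in B6 with flagellin against unstimulated 7 were higher and 0 lower. Sdhb, of succinate dehydrogenase, stood at 0.40 ± 0.09 and 0.42 ± 0.09. Both of these contrasts share the B6 unstimulated arrays, and without the 4 high arrays 0 of the 17 passed in either, with medians of 0.14 and 0.10 (0.29 and 0.23 with all arrays).

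Of 15 HIF regulators, 2 were higher and 2 lower in unstimulated cells (1 and 2 without the 4 high arrays) and 1 and 1 with flagellin. Epas1, which encodes HIF-2α, was 2.01-fold and 2.36-fold higher with the C3Bir background (1.01 ± 0.14 and 1.24 ± 0.14), and Cited2, a HIF-inducible inhibitor of HIF, was lower in unstimulated cells (-0.52 ± 0.11). Of 26 further hypoxia targets, 0 were higher and 7 lower in unstimulated cells (1 and 6 without the 4 high arrays) and 0 and 6 with flagellin. Hmox1, heme oxygenase, was 2.17-fold and 2.45-fold lower, Gbe1, the glycogen branching enzyme, 2.15-fold and 2.29-fold, and Plod1, a collagen lysyl hydroxylase, 1.80-fold and 2.00-fold.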

How the data were processed

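The authors deposited 1 table of log2 values for 45037 probe sets on 24 arrays, of which 4 had none. The steps and normalization behind these log2 values are not given in the sources used here, and they were used as deposited. Of the probe sets 34944 with values had 1 symbol in the platform annotation. The probe set with the highest mean stood for each gene. Group means of all 24 arrays were fitted with limma 3.58.1 in R 4.3.3 (16 residual degrees of freedom, eBayes defaults) and tested two-sided in 15 comparisons, with Benjamini-Hochberg adjustment over 18193 genes in each and a threshold of 0.05. The script was tested on simulated data. No pair of arrays held identical values, and arrays of a group correlated at 0.987 to 0.998. The members and lists were chosen with earlier results of these data known.

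All called members were named where a comparison had up to 10, otherwise the 5 largest rises and falls, with Slc2a1, Hif1a, Ldha, Vegfa and Egln3 always named. The background comparison was described for every member, and array values were chosen from members whose arrays did not overlap, with some added after the values had been seen. Promoter windows and chromosomes came from RefSeq tables of GRCm38.p6. Alternatives were other normalizations, a filter on low values, other treatments of probe sets, eBayes trend with robust, array weights, replicate blocks, fits of fewer arrays, and leaving out each array. Chosen after seeing the data were leaving out the 4 high arrays, leaving out array 1 of the unstimulated B6, BC-R3 and C3Bir groups, and the single strain pairs.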

Additional observations from a re-analysis of the deposited data

Results flagged for a closer look

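The flagellin change of Pgam1 differed between BC-R3 and B6 by -0.34 ± 0.11 on the log2 scale (limma, adjusted p = 0.0488 over all genes), with 0.11 in B6 and -0.23 in BC-R3, and the test of the difference itself passed. The call was lost in 14 of 24 alternatives: in 9 of the 12 fits that left out 1 array, over which the difference ranged from -0.40 to -0.27, and with quantile normalization, all probe sets, the fixed replicate block, only the arrays compared, and without the 4 high arrays.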

How the results depend on the processing

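Of 1494 recomputed values of called members, 1225 kept call and direction, 265 lost the call and 4 reversed. The reversed ones were Pfkfb4 under flagellin in B6 without the 4 high arrays (-0.02), and Slc2a1 (0.25), Pfkl (0.02) and Slc16a3 (0.11) in the unstimulated background comparison with C3Bir against BC-R3 only, which called 6 members, and 5 with flagellin. Counts of called members are given below, without the shares of all genes in the same fits. A higher or lower count therefore does not by itself show a change particular to the members. Leaving out 1 array gave 0 to 10 for flagellin in B6, 7 to 12 and 5 to 6 for C3Bir against B6 (unstimulated, flagellin), 2 to 15 for unstimulated BC-R3 against B6, 0 to 9 for unstimulated CB-R1 against C3Bir, 15 to 19 and 11 to 15 for the background, 0 to 1 and 0 to 8 for the differences of flagellin change of C3Bir and BC-R3 against B6, and 0 to 0 elsewhere. Array weights gave 19 for flagellin in B6, 2 in C3Bir and 6 in BC-R3, 19 for unstimulated BC-R3 against B6, 19 and 1 for CB-R1 against C3Bir, and 4, 19 and 1 for the 3 differences. Without array 1 of the unstimulated B6, BC-R3 and C3Bir groups the counts were 16, 6 and 3 for flagellin in B6, C3Bir and BC-R3, 12 for C3Bir against B6 with flagellin, 17 for unstimulated BC-R3 against B6, 16 and 1 for CB-R1 against C3Bir, and 2, 16 and 5 for the differences. Without the 4 high arrays they were 0 for flagellin in B6, 3 for unstimulated C3Bir against B6, 0 for unstimulated BC-R3 against B6 and 0 for the BC-R3 difference. Only the arrays compared gave 0 for flagellin in B6, 2 and 2 for C3Bir against B6, 0 for unstimulated BC-R3 against B6 and 0 for the BC-R3 difference. For unstimulated CB-R1 against C3Bir, quantile normalization and the filter on low values gave 2 each. For the BC-R3 difference, quantile normalization and all probe sets gave 0, median centring and the filter 2, and the mean of probe sets 3. The causes were not tested. Same-numbered arrays of a strain correlated at -0.54 to 0.5, over 0.1 in 8 of 12 pairs. In C3Bir (0.48, 0.31 and 0.38) and CB-R1 (0.31, 0.30 and 0.50) every pair was over 0.1 and every array matched its own number best, while in B6 and BC-R3 4 of 6 pairs were not over 0.1, so numbers were not treated as pairs. A random replicate block (correlation 0.0916) gave 7 for flagellin in B6 and 2 for the BC-R3 difference, and a fixed replicate block gave 1 for unstimulated CB-R1 against C3Bir; under both, the other counts stayed within 1.5 times. Under the fixed block the calls of Pfkl, Pfkfb3 and Pgk1 in unstimulated C3Bir against B6, of Pgam1 in the unstimulated background comparison and of Pgam1 in the BC-R3 difference were lost, the latter with another member called in its place, and under the random block that of Pfkfb3. With no background level in the table, the members below the median gene, such as Adm and Ankrd37, are the least certain.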
